A study of Mus musculus with 6 samples.

Results

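The core genes of the circadian clock were followed in RNA sequencing (RNA-seq) of the mouse medial prefrontal cortex (mPFC), the midline part of the frontal cortex. The 10 genes *Per1*, *Per2*, *Per3*, *Cry1*, *Cry2*, *Arntl*, *Nr1d1*, *Nr1d2*, *Dbp* and *Ciart* were chosen by symbol among the 18254 genes for which the authors deposited normalized read counts. All 10 were in the table and all 10 passed the filter on low values, a mean of at least 5 normalized read counts, that left 16714 genes for testing. The study compared male *Shank3* transgenic (TG) mice, which carry enhanced green fluorescent protein (EGFP)-*Shank3* and overexpress this scaffold protein of excitatory synapses, with their wild-type (WT) littermates. There were 3 TG and 3 WT libraries, numbered 1 to 3 within each genotype. A library holds the mPFC RNA of 2 mice of the same genotype, so that a value is that of a pool and the spread between single animals is not seen. All mice were 10 to 12 weeks old, of the C57BL/6J background, and were kept in a 12-h light and dark cycle. The promoter that drives the transgene, the hour at which the tissue was taken and the meaning of the library numbers are not given in the sources used here, and p-values measure the spread between these pools.

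The circadian clock is a loop of transcription that runs in nearly every cell, neurons and glia of the cortex included. ARNTL (also called BMAL1) and CLOCK bind E-boxes and switch on the *Per* and *Cry* genes, whose proteins return to the nucleus and repress them, while REV-ERBα and REV-ERBβ, encoded by *Nr1d1* and *Nr1d2*, repress *Arntl* through elements that they share with the ROR receptors. Many of these mRNAs rise and fall over the day, with *Arntl* opposite in phase to *Dbp*, *Nr1d1* and *Per* genes, so that their levels depend on the hour at which a tissue is collected.

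Library totals ran from 28363967 to 29447717 normalized read counts, and 177 to 323 genes were at 0 in a library. In each genotype the library numbered 3 had the most genes at 0 (292 in TG-3 and 323 in WT-3, against 177 to 246 in the other libraries). *Shank3* itself was at 16310 to 19004 normalized read counts in the TG libraries and at 6791 to 8374 in the WT libraries, so that no library went against its genotype label. The cortical marker *Slc17a7*, the vesicular glutamate transporter of excitatory neurons, was at 39218 to 45669. Of 6 genes that mark the suprachiasmatic nucleus, the master clock of the hypothalamus, *Avp*, *Prok2* and *Lhx1* were at most at 4.91, *Six6* was at 23.7 to 31.7, *Nms* was not analysed here, and *Vip*, which cortical interneurons also express, was at 849 to 1313. The tissue was sequenced in bulk, where fewer cells of a type and less RNA per cell cannot be told apart.

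The promoters of the clock genes were searched for the elements of the loop, and 6 of them are printed here because they hold the matches that set one clock gene apart from another. RefSeq windows on GRCm38.p6, from 250 bases before to 50 bases after a gene's start, were found for 9 of the 10 genes, and *Per2* had none. They were searched on both strands for the E-box CACGTG, the E-box variant CACGTT, the D-box (TTATGTAA or TTACGTAA), the core of the ROR and REV-ERB element (AGGTCA or GGGTCA) and the cyclic AMP element TGACGTCA. Matches are in capitals, none shares a base with another in these windows, and a match on the opposite strand reads as its reverse complement. The windows lie at chr3:95882179-95882478 (*Ciart*, minus strand), chr11:69098699-69098998 (*Per1*, plus strand, the first of 2 windows), chr10:85185005-85185304 (*Cry1*, minus strand), chr4:151044616-151044915 (*Per3*, minus strand), chr7:113207261-113207560 (*Arntl*, plus strand, the second of 2 windows) and chr14:18239057-18239356 (*Nr1d2*, minus strand), each written 5′ to 3′ in the direction of the gene.
Ciart: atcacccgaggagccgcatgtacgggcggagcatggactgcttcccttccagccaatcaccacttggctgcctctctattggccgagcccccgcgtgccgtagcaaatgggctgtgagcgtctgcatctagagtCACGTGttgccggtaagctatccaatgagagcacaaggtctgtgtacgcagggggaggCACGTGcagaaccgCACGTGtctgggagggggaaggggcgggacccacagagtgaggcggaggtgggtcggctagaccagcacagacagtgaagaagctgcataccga
Per1: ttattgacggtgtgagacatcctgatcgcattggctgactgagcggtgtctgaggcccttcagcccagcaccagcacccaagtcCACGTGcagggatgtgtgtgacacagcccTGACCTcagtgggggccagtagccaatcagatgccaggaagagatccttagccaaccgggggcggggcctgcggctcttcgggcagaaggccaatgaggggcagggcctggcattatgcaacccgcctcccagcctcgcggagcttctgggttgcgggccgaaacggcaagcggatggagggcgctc
Cry1: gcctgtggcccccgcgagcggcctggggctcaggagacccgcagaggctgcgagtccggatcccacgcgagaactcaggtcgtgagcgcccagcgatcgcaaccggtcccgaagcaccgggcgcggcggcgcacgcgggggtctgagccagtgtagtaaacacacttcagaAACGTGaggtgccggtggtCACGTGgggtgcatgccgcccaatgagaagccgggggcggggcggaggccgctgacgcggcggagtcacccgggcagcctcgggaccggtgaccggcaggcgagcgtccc
Per3: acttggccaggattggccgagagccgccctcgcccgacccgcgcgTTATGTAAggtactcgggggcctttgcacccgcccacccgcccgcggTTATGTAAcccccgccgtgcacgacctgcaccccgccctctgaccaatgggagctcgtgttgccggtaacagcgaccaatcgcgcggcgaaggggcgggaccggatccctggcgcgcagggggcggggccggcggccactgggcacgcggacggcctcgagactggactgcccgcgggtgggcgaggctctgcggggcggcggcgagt
Arntl: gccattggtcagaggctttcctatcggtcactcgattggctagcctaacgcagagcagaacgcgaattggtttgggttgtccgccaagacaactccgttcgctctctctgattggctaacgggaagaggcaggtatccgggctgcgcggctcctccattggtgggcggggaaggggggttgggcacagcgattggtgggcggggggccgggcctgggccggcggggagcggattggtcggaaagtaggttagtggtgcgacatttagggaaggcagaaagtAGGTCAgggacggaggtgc
Nr1d2: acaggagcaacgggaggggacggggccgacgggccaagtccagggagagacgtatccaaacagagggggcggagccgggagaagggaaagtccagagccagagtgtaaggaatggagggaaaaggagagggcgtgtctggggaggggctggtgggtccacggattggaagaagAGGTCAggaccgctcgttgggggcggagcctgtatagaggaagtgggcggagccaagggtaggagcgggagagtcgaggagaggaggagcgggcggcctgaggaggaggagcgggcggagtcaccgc

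The *Ciart* window held 3 E-boxes, which began 116, 58 and 44 bases before the start. Only 29 of 32851 windows of all genes in the RefSeq table (0.0883%) held 3 or more. *Per1* had 1 E-box (166 bases before the start) and a core of the ROR element on the opposite strand (137 bases before). *Cry1* had an E-box (60 bases before the start) and the variant on the opposite strand (79 bases before). The *Per3* window held 2 D-boxes, at 205 and 158 bases before the start, as did 8 of all windows (0.0244% with 2 or more). *Arntl* had the ROR core 32 bases after the start and *Nr1d2* had it 77 bases before. Of the windows that are not printed, those of *Cry2* and *Nr1d1* held the E-box variant on the opposite strand, and that of *Dbp* held no match. Counted by gene, 3 of the 9 had an E-box, against 7.15% of all windows, 3 had the variant (4.68%), 1 a D-box (1.06%), 3 the ROR core (27.5%) and none the cyclic AMP element (1.79%). These are matches of letters in a short window, not sites at which binding was measured. Since *Per1* and *Arntl* had 2 windows each, a count by gene and a share of windows are unlike measures.

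Per kilobase of annotated exon, the clock genes of the WT mPFC spanned a wide range of levels. *Nr1d1* was highest at 1309.9 ± 165 normalized read counts per kb (SD, n = 3), followed by *Per1* at 912 ± 116. *Dbp* (712 ± 40.1), *Cry2* (703 ± 7.42) and *Nr1d2* (620 ± 107) came next, and these neighbours did not differ by more than the sum of their SDs. *Ciart* (297 ± 71.7) and *Per2* (264 ± 29.9) were likewise not separated. Below them came *Per3* (212 ± 4.74), *Arntl* (136 ± 16.8) and *Cry1* (108 ± 1.53). Across all 6 libraries the genes differed as much in how steady they were as in their level. The coefficient of variation was 1.20% for *Cry2*, 3.03% for *Cry1* and 3.12% for *Per3*, and it was 14.2% for *Nr1d2* and 23.0% for *Ciart*, with the other 5 genes between 8.33% and 11.5%. *Ciart* had the widest span, 1.64-fold between its highest and lowest library.

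Read by genotype, no clock gene passed the test in the *Shank3* TG mPFC. No other gene passed it either, *Shank3* itself included (adjusted p = 0.0643 in limma). Read by library number, the TG-3 and WT-3 libraries stood apart together. In these 2 libraries *Ciart*, *Nr1d1* and *Per1* rose and *Arntl* and *Nr1d2* fell, by 1.19- to 1.52-fold upward and to 0.793 to 0.809 of the level in the libraries numbered 1 and 2. *Dbp* was higher in both without passing the test, and *Per3*, *Cry1*, *Cry2* and *Per2* gave no call. Many genes outside the clock also differed in these libraries, so that the counts below are read against the share of all genes.

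**Figure D1:**
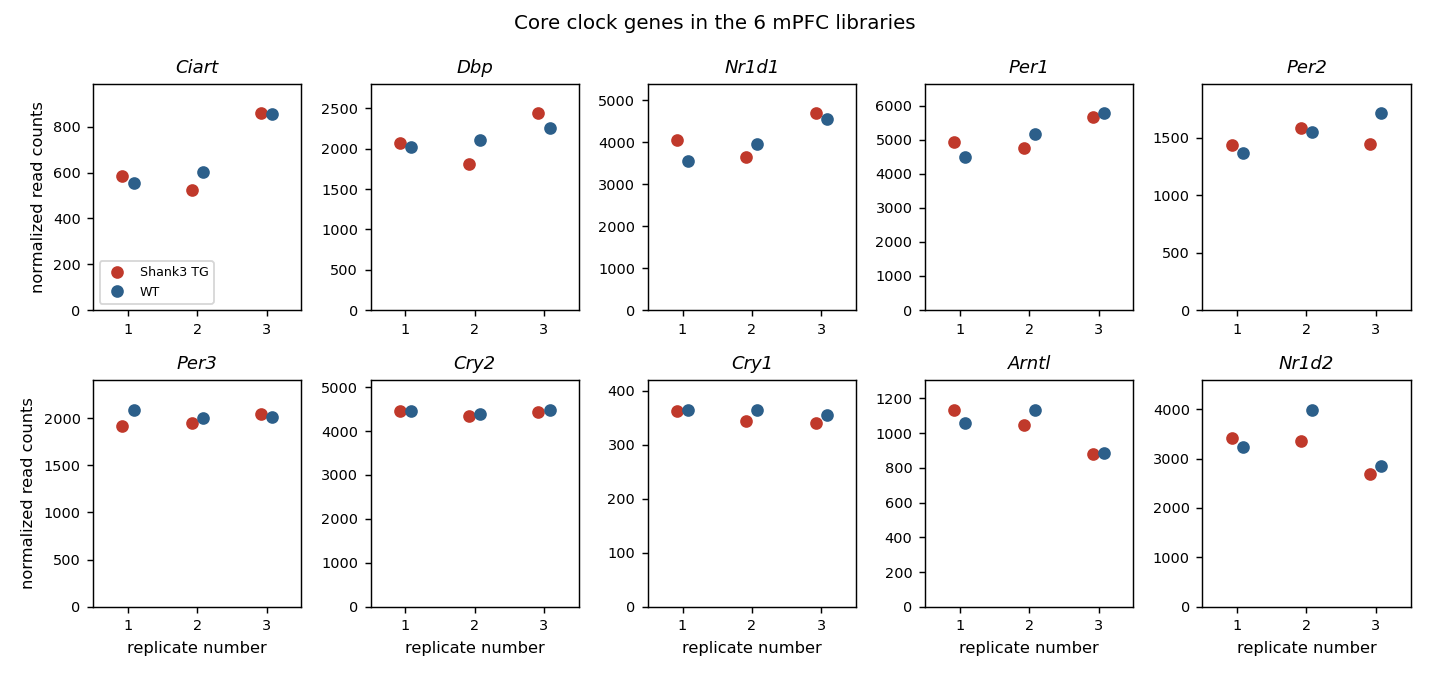
Normalized read counts (vertical axis, from 0, a scale of its own for each gene) of the 10 core clock genes against the replicate number (horizontal axis), with a red point for each TG library and a blue point for each WT library. In TG-3 and WT-3 *Ciart* is at 859 and 857, above 523 to 602 in the other libraries, and *Arntl* is at 880 and 887, below 1046 to 1134.

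*Arntl* encodes the activator of the loop, the partner that CLOCK needs to bind DNA. It lies on chromosome 7 (113207465 to 113314126, plus strand; GRCm38, GENCODE M21, as for all genes below). It was at 1132, 1046 and 880 normalized read counts in TG-1, TG-2 and TG-3 and at 1057, 1134 and 887 in WT-1, WT-2 and WT-3. Both libraries numbered 3 lay below the other 4, which were close to each other, and the genotypes overlapped. The log2 difference of number 3 from the mean of numbers 1 and 2 was -0.31 ± 0.073 (SE; adjusted p = 0.0273 in limma). It was -0.31 within the TG libraries and -0.30 within the WT libraries.

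The *Per* genes encode the repressors that mark the end of each turn of the loop. *Per1* (chromosome 11, 69095217 to 69109960, plus strand), which synaptic activity and glucocorticoids also induce, was at 4919, 4758 and 5668 in TG-1 to TG-3 and at 4476, 5158 and 5776 in WT-1 to WT-3. Both libraries numbered 3 lay above the other 4. The log2 difference was 0.25 ± 0.066 (SE; adjusted p = 0.0385 in limma), with 0.23 within TG and 0.27 within WT. *Per2* (chromosome 1, 91415982 to 91459324, minus strand), whose loss disturbs behavioural rhythms, was at 1437, 1584 and 1445 in the TG libraries and at 1366, 1551 and 1716 in the WT libraries. WT-3 was the highest library while TG-3 lay between TG-1 and TG-2, and the log2 difference of number 3 was 0.09 ± 0.080 (SE; adjusted p = 0.495 in limma), with -0.062 within TG and 0.24 within WT. *Per3* (chromosome 4, 151003652 to 151044665, minus strand), the member least needed for the rhythm and the one with 2 D-boxes in its window, stayed between 1918 in TG-1 and 2089 in WT-1. Its libraries numbered 3 fell inside that range, and its log2 difference was 0.03 with a 95% interval of -0.11 to 0.17.

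The cryptochromes, the repressors that PER proteins carry to the nucleus, were the steadiest of the 10 genes. *Cry1* (chromosome 10, 85131700 to 85185064, minus strand) was at 363, 343 and 341 in TG-1 to TG-3 and at 364, 364 and 355 in WT-1 to WT-3. The library numbered 3 was the lowest of its genotype in both, yet the groups overlapped, and the log2 difference of number 3 was -0.042 with a 95% interval of -0.25 to 0.17. *Cry2* (chromosome 2, 92403646 to 92434043, minus strand) stayed between 4337 in TG-2 and 4482 in WT-3. Its log2 difference of number 3 was 0.017, with an interval of -0.11 to 0.14, so that a difference of the size seen for *Ciart* lies outside the interval for *Cry2* and for *Cry1*.

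*Ciart* encodes CHRONO, a repressor that binds ARNTL and CLOCK, and it lies on chromosome 3 (95878503 to 95882251, minus strand). It was at 585, 523 and 859 in TG-1 to TG-3 and at 556, 602 and 857 in WT-1 to WT-3. The libraries numbered 3 were nearly equal to each other and far above the other 4. The log2 difference was 0.60 ± 0.086 (SE; adjusted p = 0.00351 in limma), a 1.52-fold increase, with 0.63 within TG and 0.57 within WT. It was the largest difference of the 10 genes, but 10.1% of all tested genes had a difference of number 3 at least as large in either direction. *Ciart*, with the 3 E-boxes of the window printed above, and *Dbp*, whose window held no match, were both higher in TG-3 and WT-3 than in the other 4 libraries.

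*Nr1d1* and *Nr1d2* encode the paired receptors REV-ERBα and REV-ERBβ, which repress *Arntl*, and they moved apart. *Nr1d1* (chromosome 11, 98767932 to 98775333, minus strand) was at 4050.5, 3641 and 4695 in TG-1 to TG-3 and at 3555, 3969 and 4568 in WT-1 to WT-3. Both libraries numbered 3 lay above the other 4, with a log2 difference of 0.29 ± 0.071 (SE; adjusted p = 0.0313 in limma). *Nr1d2* (chromosome 14, 18204054 to 18239127, minus strand) was at 3413, 3355 and 2679 in TG-1 to TG-3 and at 3232, 3986 and 2849 in WT-1 to WT-3. Both libraries numbered 3 lay below the other 4, and the difference was -0.33 ± 0.074 (SE; adjusted p = 0.0201 in limma). The 95% intervals of the log2 difference, 0.12 to 0.45 for *Nr1d1* and -0.50 to -0.17 for *Nr1d2*, did not overlap, and the differences held the same sign and size within each genotype (0.29 and 0.28 for *Nr1d1*, -0.34 and -0.33 for *Nr1d2*, in TG and WT). Exons of *Nr1d1* share 263 bases with those of *Thra* on the opposite strand, and *Thra* was at 17550 to 19777 normalized read counts. Whether the quantification used the strand is not given in the sources used here.

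*Dbp*, a transcription factor that carries the rhythm to output genes through D-boxes, lies on chromosome 7 (45705088 to 45710203, plus strand). It was at 2072, 1808 and 2441 in TG-1 to TG-3 and at 2026, 2106 and 2262 in WT-1 to WT-3. Both libraries numbered 3 lay above the other 4, by less in the WT libraries (log2 difference 0.13) than in the TG libraries (0.33). The difference over both genotypes was 0.23 ± 0.077 (SE) and did not pass the test (adjusted p = 0.0776 in limma). Exons of *Dbp* share 539 bases with those of *Sphk2* on the opposite strand, which was at 694 to 816 normalized read counts.

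For the genotype comparison, which asks whether extra *Shank3* goes with another level of the clock genes, the 10 genes were read from limma's fit over all tested genes. None passed an adjusted p of 0.05 (0 of 10, against 0% of all tested genes), and none had an unadjusted p under 0.05, as 336 of all tested genes did. *Shank3* had a log2 fold change of 1.18 ± 0.10 (SE) and was not called either (adjusted p = 0.0643 in limma). The log2 fold change of TG against WT was -0.0025 ± 0.11 (SE) for *Per1*, -0.049 ± 0.10 for *Per2*, -0.048 ± 0.068 for *Per3*, -0.052 ± 0.090 for *Cry1* and -0.012 ± 0.062 for *Cry2*. It was -0.0096 ± 0.13 for *Arntl*, 0.035 ± 0.12 for *Nr1d1*, -0.086 ± 0.14 for *Nr1d2*, -0.026 ± 0.12 for *Dbp* and -0.042 ± 0.22 for *Ciart*. All 10 adjusted p-values were 0.9999 in limma. The TG and WT libraries overlapped for each of the 10 genes (0 of 10 without overlap, against 6.02% of all tested genes). The 95% intervals were narrow for *Cry2* (-0.15 to 0.13) and wide for *Ciart* (-0.56 to 0.47). This fit has no term for the library number, so that differences between the numbers widen its intervals. With the library number as a block, the SE was 0.051 for *Cry2* and 0.081 for *Ciart*.

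Although 9 of the 10 estimates were below 0, with a median of -0.034 against -0.0037 for all tested genes, they did not share a direction when the libraries of each number were set side by side. TG-1 was above WT-1 for 7 of the 10 genes (median log2 difference 0.072), TG-2 was below WT-2 for 9 of the 10 (median -0.12, *Per2* being the gene above), and TG-3 was below WT-3 for 6 of the 10 (median -0.012). Over all tested genes, TG-1, TG-2 and TG-3 were above the WT library of the same number for 50.4%, 48.4% and 48.1%. The 10 clock genes summed to 23343 normalized read counts in TG-2 and 25268 in WT-2, and WT-1 was lower still at 23184. The RNA of 6 olfactory bulb markers was highest in TG-2, summing to 1610 normalized read counts against 223 to 436 in the other 5. The part of this RNA in the differences of TG-2 from WT-2 was not tested. The 10 oligodendrocyte markers, all lower in TG with none called, summed to 47019 to 61224 in TG and 67914 to 80344 in WT, and the 7 leptomeningeal markers, all higher in TG with none called, to 19282 to 20283 in TG and 14323 to 17778 in WT. Their part in the clock values was not tested either. With the library number as a block, *Shank3* was the 1 gene called (0.00598% of all tested genes) and again no clock gene was, the smallest unadjusted p of the 10 being 0.248.

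**Figure D2:**
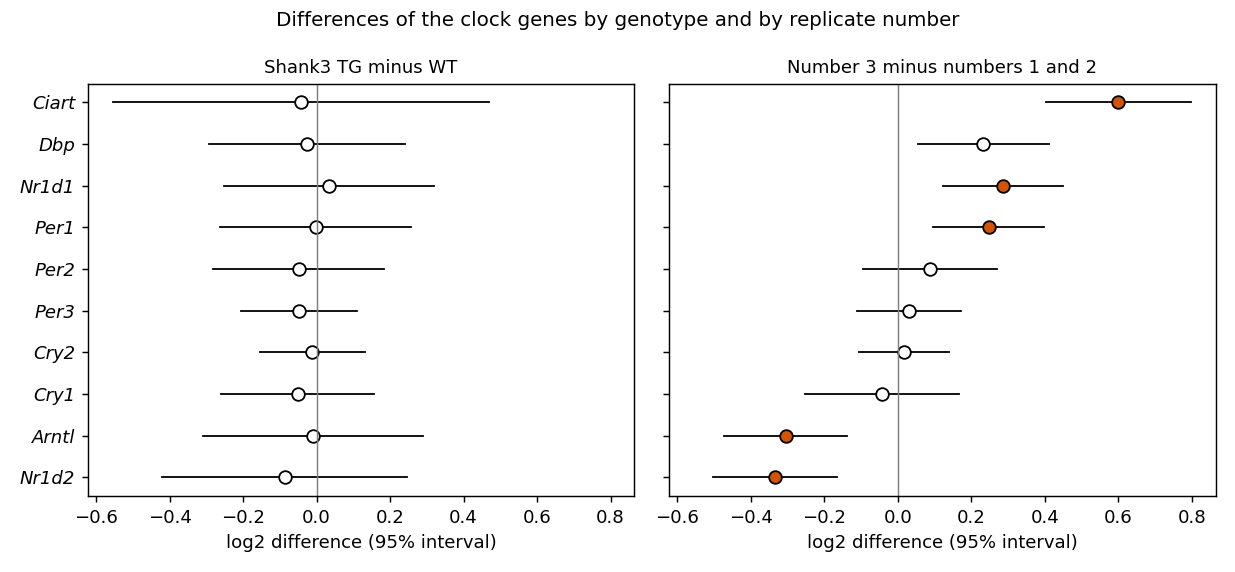
Log2 differences of the 10 core clock genes (points) with their 95% intervals from limma (lines), TG minus WT on the left and the libraries numbered 3 minus those numbered 1 and 2 on the right. Filled points have an adjusted p under 0.05. On the left each interval crosses 0, and on the right 5 points are filled, with *Ciart* at 0.60 and *Nr1d2* at -0.33 as the extremes.

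The library number was taken as a possible reading of when the tissue was collected, which the sources used here do not state. Each number has a single library in each genotype, so that the p-values for number cannot measure the spread between collections. In this comparison limma's F-test over the 3 numbers, with genotype as a term, called 2 of the 10 clock genes, *Ciart* (adjusted p = 0.0109) and *Nr1d2* (adjusted p = 0.0449), against 9.54% of all tested genes. In the contrast of number 3 with numbers 1 and 2, which was chosen knowing that these libraries stand apart, 3 of the 10 were called higher against 8.65% of all tested genes, and 2 of the 10 were called lower against 7.32%. By overlap alone, 4 of the 10 (*Ciart*, *Nr1d1*, *Per1* and *Dbp*) were above the other 4 libraries in both TG-3 and WT-3, against 20.3% of all tested genes, and 2 (*Arntl* and *Nr1d2*) were below them, against 20.6%. The differences themselves were of common size. Of all tested genes, 24.6% had a difference of number 3 at least as large as that of *Nr1d2*, 27.9% as large as that of *Arntl*, 30.2% as large as that of *Nr1d1* and 36.0% as large as that of *Per1*. For the clock genes, the libraries numbered 2 did not stand apart from those numbered 1. The log2 differences of the 10 genes lay between -0.070 for *Dbp* and 0.16 for *Per2*, and no clock gene was called, against 0.00598% of all tested genes (1 gene, *Gm8979*). An unadjusted p under 0.05 in limma was found for 0 of the 10, and for 1257 of 16714 tested genes. Of the lists described below, 8 of 14 immediate-early genes and 7 of 12 glucocorticoid-responsive genes had such a p, with none called.

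These calls changed with the libraries used and with the way limma pools the spread. With TG-3 or WT-3 left out, number 3 is a single library that is assumed to vary like the others, and fewer samples enter the test. Without TG-3 no clock gene was called, and *Ciart* had a log2 difference of 0.57 (adjusted p = 0.0617 in limma). Without WT-3 none was called either, with 0.63 for *Ciart* (adjusted p = 0.0569 in limma), and 411 genes of all those tested were called in place of 2669. Without the mean and variance trend 82 genes and no clock gene passed, *Ciart* having an adjusted p of 0.0871 in limma. Without WT-1 *Nr1d1* (adjusted p = 0.0751) and *Per1* (0.0955) were lost, without TG-1 *Arntl* (0.0708) and without TG-2 *Per1* (0.0547), whereas without WT-2 *Dbp* was called as well (0.0144, all in limma). None of these settings changed the direction of these 6 genes.

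Ratios between genes of opposite direction show the shift inside each library without regard to its scaling. They were chosen after the values had been seen and are no further test of the shift. *Ciart* over *Arntl* was 0.517 and 0.4998 in TG-1 and TG-2 and 0.526 and 0.531 in WT-1 and WT-2, and it was 0.977 in TG-3 and 0.967 in WT-3. *Dbp* over *Arntl* was 1.73 to 1.92 in the libraries numbered 1 and 2, 2.77 in TG-3 and 2.55 in WT-3. *Nr1d1* over *Nr1d2* was 0.996 to 1.19 in the libraries numbered 1 and 2, 1.75 in TG-3 and 1.60 in WT-3. In each of the 3 ratios TG-3 and WT-3 were closer to each other than either was to the other libraries of its genotype.

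**Figure D3:**
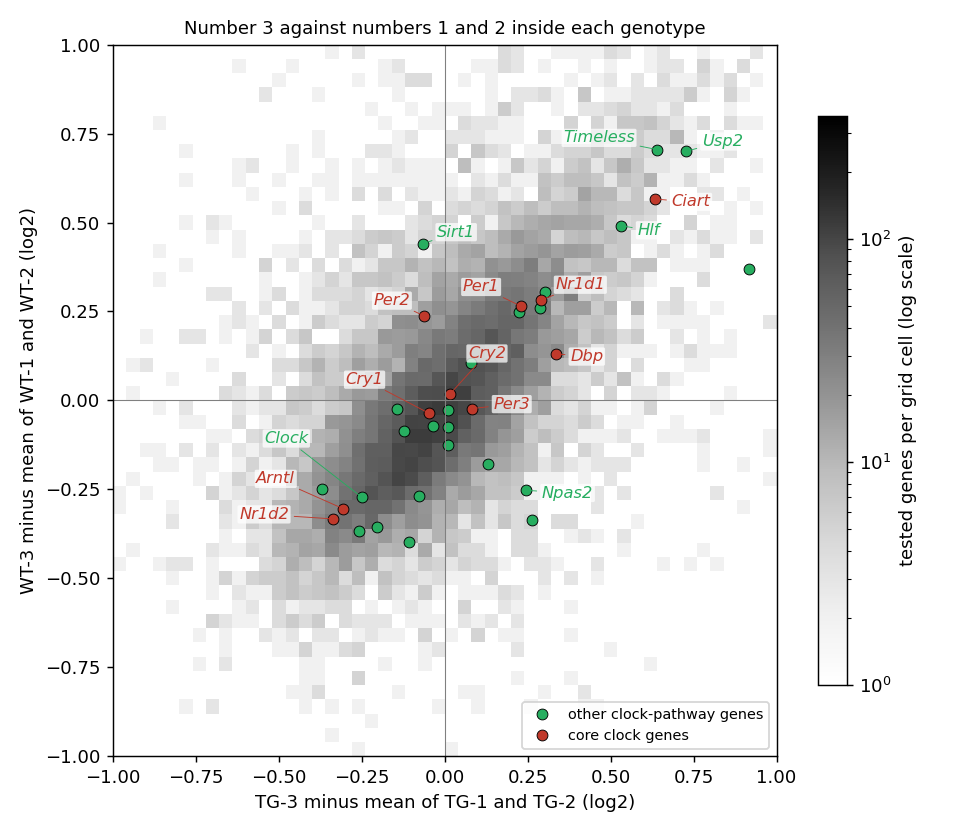
Log2 difference of TG-3 from the mean of TG-1 and TG-2 (horizontal axis) against that of WT-3 from the mean of WT-1 and WT-2 (vertical axis). Grey cells count tested genes on a log scale (15293 of 16714 lie in the plotted range), red points are the 10 core clock genes and green points the other clock-pathway genes, of which *Rorb* lies outside the range. *Ciart* lies at 0.63 and 0.57 and *Nr1d2* at -0.34 and -0.33, and the clock genes lie within the cloud of all genes.

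The genes with the most similar profile to *Ciart*, the clock gene with the widest span, were sought by the root mean square difference between mean-centred log2 values over the 6 libraries. The 5 closest were *Ppp2r2d* (0.029), *Repin1* (0.040), *Kif23* (0.041), *Larp7* (0.046) and *Atg9a* (0.046), none of them a gene of the clock lists. *Kif23* encodes a kinesin of cytokinesis, *Larp7* a protein of the small nuclear RNA complex that restrains transcript elongation, and *Atg9a* a membrane protein of autophagy. *Ppp2r2d*, a regulatory subunit of protein phosphatase 2A, was at 1254, 1163 and 1920 in TG-1 to TG-3 and at 1264, 1305 and 1862 in WT-1 to WT-3. The other clock genes were farther from *Ciart*. *Nr1d1* ranked 687th among the tested genes at 0.154, *Per1* 1054th at 0.175 and *Dbp* 1116th at 0.177, and *Arntl* and *Nr1d2* ranked 12951st and 13453rd.

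Beyond the 10 genes, 25 other genes of the clock pathway were read from the same fits. None was called for genotype or between numbers 1 and 2. For number 3, 6 of 25 were called higher and 4 of 25 lower, against the 8.65% and 7.32% of all tested genes given above, with a median log2 difference of -0.032 (all tested genes -0.0024). Among the partners of *Arntl*, *Clock* was at 2322, 2485 and 2019 in TG-1 to TG-3 and at 2388, 2630 and 2076 in WT-1 to WT-3, and it fell in number 3 as *Arntl* did (log2 -0.26 ± 0.057 SE, adjusted p = 0.0199 in limma). Its paralog *Npas2* had -0.0044 and the *Arntl* paralog *Arntl2* -0.025, neither called.

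The ROR receptors, which activate *Arntl* at the element that the REV-ERB proteins also bind, were led by *Rorb*, also a marker of layer 4 neurons. *Rorb* was at 1974, 2072 and 539.9 in TG-1 to TG-3 and at 1151, 1124 and 586 in WT-1 to WT-3, a log2 difference of -1.43 ± 0.18 (SE; adjusted p = 0.00182 in limma). TG-1 and TG-2 lay above all other libraries, and both libraries numbered 3 lay below them. *Rora* had a log2 difference of -0.058 and was not called.

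Of the factors that read D-boxes with DBP, *Hlf* rose (0.51 ± 0.074 SE, adjusted p = 0.00369 in limma). It was at 6384, 5486 and 8555 in TG-1 to TG-3 and at 6067, 6604 and 8896 in WT-1 to WT-3, both libraries numbered 3 being above the rest. *Tef*, at 8240 to 9180 (0.091), and the D-box repressor *Nfil3* (-0.28, adjusted p = 0.106 in limma) were not called. Among the E-box repressors *Bhlhe41* (DEC2) rose by 0.24 (adjusted p = 0.0477 in limma), and *Bhlhe40* (DEC1), at 4411 to 5594, had -0.084 and was not called.

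Several enzymes that set how long PER and CRY proteins last also differed in number 3. *Usp2*, a deubiquitinase, was at 2136, 1773 and 3219 in TG-1 to TG-3 and at 1928, 1937 and 3140 in WT-1 to WT-3 and rose by 0.71 ± 0.070 (SE; adjusted p = 0.000592 in limma). *Csnk1e*, casein kinase 1 epsilon, was at 2944 to 3054 in the libraries numbered 1 and 2, at 3743 in TG-3 and at 3659 in WT-3 (0.30, adjusted p = 0.00946 in limma), whereas *Csnk1d*, at 3566 to 3781, had -0.0089. *Gsk3b*, a kinase that marks CRY2 for degradation, was at 5661 to 6327 in the libraries numbered 1 and 2, at 7099 in TG-3 and at 7162 in WT-3 (0.27, adjusted p = 0.0206 in limma). The ubiquitin ligase subunits *Fbxl21* (-0.036) and *Btrc*, which acts on PER proteins and was at 3495 to 3682 (-0.032), were not called.

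Both *Timeless* and *Nampt* were called as well. *Timeless*, whose mammalian protein acts mainly at replication forks, was at 105 to 176 in the libraries numbered 1 and 2, at 208 in TG-3 and at 222 in WT-3 (0.67, adjusted p = 0.0342 in limma). *Nampt*, a clock-driven enzyme of NAD synthesis, fell by 0.31 on the log2 scale (adjusted p = 0.0242 in limma), with 1448 to 1698 in the libraries numbered 1 and 2, 1192 in TG-3 and 1319 in WT-3. *Noct*, a rhythmic output gene, at 10919 to 14540 (-0.17), *Cipc* (-0.11), *Wee1* (-0.25), *Prkaa2* (-0.053) and *Sirt1* (0.19) were not called.

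Genes that respond to other daily or acute signals moved with the same libraries, and their part in the clock values was not tested. Of 14 immediate-early genes of neuronal activity, 11 were called higher in number 3 (8.65% of all tested genes were) and none lower (7.32% were), with a median log2 difference of 0.52, and their summed counts were 50699 to 56809 in the libraries numbered 1 and 2 and 73498 to 73556 in those numbered 3. *Egr1* was at 15340 to 17001 against 18417 and 19984, *Arc* at 14314 to 16390 against 18346 and 19094, and *Nr4a1* at 4404 to 5336 against 8413 and 8014, in TG-3 and WT-3. Of 12 glucocorticoid-responsive genes, *Per1* among them, 4 were called higher (*Klf9*, *Mt2*, *Errfi1* and *Per1*) and 2 lower (*Fkbp5* and *Tsc22d3*), to be read against the same 8.65% and 7.32% of all tested genes. *Klf9*, which the clock also drives, rose by 0.81 and *Fkbp5* fell by 0.51 on the log2 scale. Of the 2 cold-inducible RNA-binding proteins, *Rbm3* was called lower (-0.34, adjusted p = 0.0237 in limma), against 7.32% of all tested genes. It was at 2567 to 3020 in the libraries numbered 1 and 2, at 2195 in TG-3 and at 2182 in WT-3. *Cirbp* had -0.043 and was not called. Of 5 endothelial markers, 1 was called higher and 1 lower, against 8.65% and 7.32% of all tested genes. The former, *Pecam1*, was at 657 to 811 in the libraries numbered 1 and 2, at 2359 in TG-3 and at 2560 in WT-3, the latter was *Slco1a4* (-0.40), and *Cldn5* (-0.17), *Flt1* (-0.035) and *Ly6c1* (-0.060) were not called. Further, 2 of 7 cortical excitatory markers rose (*Neurod2* and *Neurod6*, against 8.65% of all tested genes). The 6 choroid plexus markers summed to 552 in TG-3 and 164 in WT-3 against 90.0 to 223 in the other 4 libraries. Of the 5 that were tested, *Ttr* was called higher, against 8.65% of all tested genes. It was at 445 in TG-3 and 41.7 in WT-3, the latter below TG-1 at 127. Among the 7 leptomeningeal markers *Col1a1* was called lower, against 7.32% of all tested genes.

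**Figure D4:**
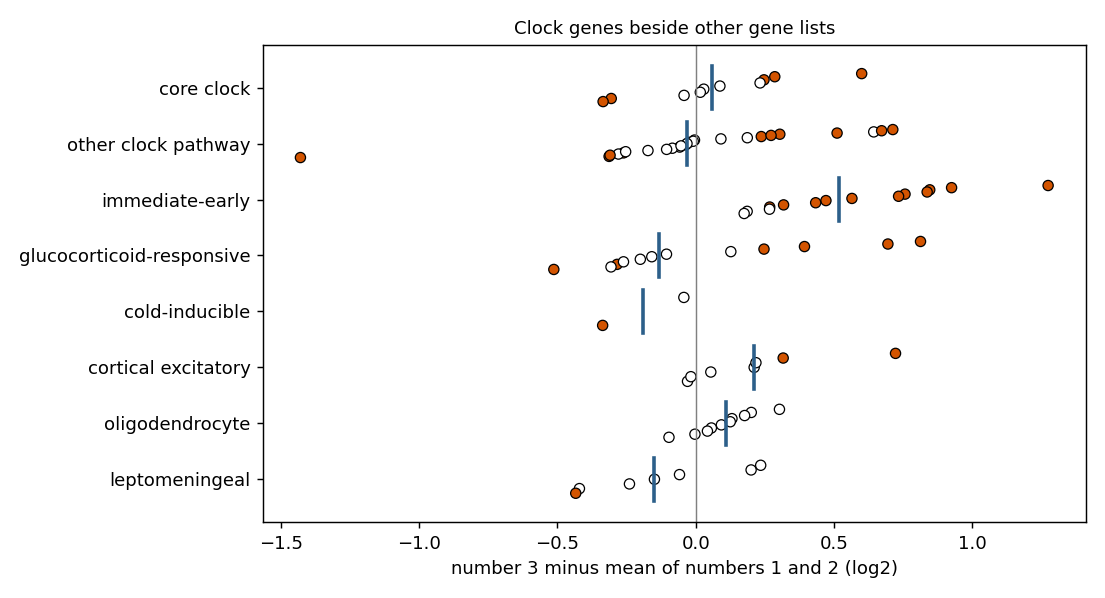
Log2 difference of the libraries numbered 3 from the mean of those numbered 1 and 2 (horizontal axis) for each gene of 8 lists (rows). Points are genes, filled where the adjusted p in limma was under 0.05, and blue bars are list medians. The core clock genes lie on both sides of 0 with 5 filled of 10, whereas all 14 immediate-early genes lie above 0 with 11 filled.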

How the data were processed

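RNA-seq libraries of the mPFC were made with a stranded mRNA kit, each from the pooled tissue of 2 male mice of 1 genotype, and sequenced as 101-base paired-end reads (3 *Shank3* TG and 3 WT libraries). The authors estimated transcript abundance with Salmon 0.9.1 on GRCm38 with GC bias correction, summarised it by gene with tximport and divided it by the size factors of DESeq2 1.19.11 (tools and versions per the labels and the study's methods, R 3.6.0). The deposited values are this signal, normalized read counts for 18254 genes. They are not whole numbers, and 23.5% to 41.1% of the low values of a library lay near whole multiples of 1 step, so that reads were not recovered and no counting interval was given.

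Genes were named with GENCODE M21 (18215 of 18254 matched). Each gene with a mean of at least 5 (16714 genes) was tested on log2(value + 1) with limma 3.58.1 in R 4.3.3 (lmFit, eBayes with a trend), two-sided, with Benjamini-Hochberg adjustment over all tested genes and a threshold of 0.05. Log2 differences are on this scale and slightly understate changes of low genes. Genotype was fitted alone, since the study's methods name no other term, and the library number with genotype as a term. Levels per kb used the length of all annotated exons. The test was checked on simulated data.

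Between the genotypes, libraries of the same number resembled each other most, clearly for number 3 and by a small margin for numbers 1 and 2. Across genes, the deviations from the genotype mean correlated between TG and WT at 0.302 for number 1, 0.332 for number 2 and 0.616 for number 3, whereas no correlation between unlike numbers exceeded 0.266, so that the block on number was run beside the genotype fit. The pairing comes from the data, since the labels give only the numbers.

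The clock genes, the other gene lists and the contrast of number 3 were chosen with earlier results of these data known. Named are the 10 clock genes, genes of the 25 others of the clock pathway, with values for the 8 with the highest counts and any past the threshold, up to 3 of each other list with the highest counts or genes past the threshold, all 5 endothelial markers, *Shank3* and the 5 genes nearest to *Ciart*. *Vip*, *Avp*, *Prok2*, *Lhx1*, *Six6* and *Nms* are named as a check of the tissue, *Thra* and *Sphk2* for their overlap with clock genes, and *Gm8979* after its value had been seen. Values of 2 genes of the clock pathway are not reported here. The other settings tried were a pseudocount of 0.1 or 5, a filter at a mean of 50 or none, upper quartile scaling, quantile normalization, eBayes without a trend or with the robust option, each library left out, no genotype term, the block, an empirical null and the 4 libraries numbered 1 and 2.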

Additional observations from a re-analysis of the deposited data

Results flagged for a closer look

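In 2 other genes of the clock pathway the library numbered 3 lay on opposite sides of the rest in the TG and WT libraries. *Npas2*, a paralog of *Clock* that is abundant in the forebrain, was 0.24 higher on the log2 scale in TG-3 than the mean of TG-1 and TG-2 (1523 against 1373 and 1204 normalized read counts), and WT-3 differed from the mean of WT-1 and WT-2 by -0.25 (1139 against 1316 and 1400.0). *Sirt1*, a NAD-dependent deacetylase that acts on clock proteins, differed by -0.067 in TG-3 (507 against 552 and 512) and by 0.44 in WT-3 (562 against 375 and 457). The difference between the genotypes was not tested, since each genotype has 1 library numbered 3. None of the 10 core clock genes met this criterion.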

How the results depend on the processing

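For the genotype comparison, no clock gene was called under any alternative, and the 10 log2 fold changes stayed between -0.25 and 0.15. Of all tested genes 0 were called, and 1 with upper quartile scaling, with the robust option, with the library number as a block or without both libraries numbered 3, 26 with the empirical null, and 0 to 1 with 1 library left out. The block changed no other call. Signs reversed for *Per1* with upper quartile scaling (0.0056) and without both libraries numbered 3 (0.0100), for *Per2* without both (0.051) and for *Arntl* with quantile normalization (0.0097). With 1 library left out, fold changes ran from -0.098 to 0.086 for *Per1*, -0.13 to 0.031 for *Per2*, -0.11 to 0.093 for *Arntl*, -0.062 to 0.13 for *Nr1d1*, -0.20 to 0.045 for *Nr1d2*, -0.14 to 0.079 for *Dbp* and -0.25 to 0.15 for *Ciart*. For number 3 against 1 and 2, 2669 genes and 5 clock genes were called, 82 and 0 without a trend, and 411 to 2989 and 0 to 6 with 1 library left out, when *Per2* ran from -0.062 to 0.24 and *Per3* from -0.023 to 0.081. The F-test called 1595 genes and 2 clock genes, 32 and 0 without a trend, 1 clock gene with upper quartile scaling, and 246 to 2252 and 0 to 5 with 1 library left out. For number 2 against 1, 1 gene and no clock gene were called, 0 with a mean of at least 50, 4 with the robust option and 4 to 31 with 1 library left out, and *Nr1d1* reversed with upper quartile scaling (-0.013) and quantile normalization (-0.0063). With 1 library left out this contrast ran from -0.026 to 0.18 for *Per1*, -0.074 to 0.038 for *Per3*, -0.088 to 0.074 for *Arntl*, -0.12 to 0.12 for *Nr1d1*, -0.22 to 0.076 for *Dbp* and -0.14 to 0.096 for *Ciart*. The cause of these shifts was not tested.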
